A study of Homo sapiens with 18 samples.

Results

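The first step of a serial selection of nerve-invading cells was examined by comparing leaders of passage 2 with leaders of passage 1, 3 RNA sequencing libraries against 3 of the 18 libraries in the series. The libraries were grouped by their labels, and the comparison was chosen with earlier results of these data known. All came from MiaPaCa-2, an established human pancreatic cancer line labelled as wild type, with no engineered allele stated for any group. Sample titles of the line that was never injected carry the tag MiaFRFP, whose meaning the titles do not give. After injection of the line into sciatic nerve, cells recovered at the front of the invading mass were called leaders. Passage 1 leaders had gone through the nerve once. Part of them was grown in culture, injected again and collected at the front to give passage 2 leaders, and this cycle went on to passages 3 and 4, which are used here only for the last step of the selection. The other groups were the line that was never injected and passage 1 laggers, the cells that stayed behind, and all 6 groups held 3 libraries each. All groups derive from 1 line, and no source states that replicates came from separate cultures or animals, so p-values measure the spread between these libraries, which may be technical. The labels do not say whether RNA was taken at harvest or after regrowth.

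Perineural invasion is the growth of tumour cells along nerves, and pancreatic ductal cancer is known for it. It is known to involve the actin cytoskeleton, adhesion to a laminin-rich matrix and signals exchanged with Schwann cells and nerve fibres. In bulk RNA, fewer cells of a type and less RNA per cell cannot be told apart. As a check of the labelled cell type, KRT18, a keratin of simple epithelium, stood at 6533, 14660 and 6015 CPM (counts scaled by library size with the TMM method) in passage 1 replicates 1, 2 and 3 and at 11850, 7926 and 9368 in passage 2. VIM, a mesenchymal intermediate filament that this line is known to express, stood at 1763, 2496 and 2023 and at 2830, 2423 and 2488 CPM. CDH1, the main epithelial cadherin, was low in both groups, at 14.4, 10.7 and 0.872 and 2.2, 0 and 1.99 CPM.

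The libraries of the groups differed in make-up as well as in gene levels. Gene totals ranged from 21474819 to 26110847 counts in passage 1 and from 20837228 to 27302253 in passage 2 (two-sided exact permutation p = 0.8). Mitochondrially encoded genes took 5.60% to 8.57% of gene counts in passage 1 and 3.36% to 3.90% in passage 2. Reads outside genes took 6.78% to 8.80% and 3.95% to 4.07% of all counts, with or without a gene. Reads aligned to several places took 22.9% to 27.4% and 28.1% to 30.6% of them. Between 21050 and 22145 genes had a count in passage 1, and between 19400 and 20028 in passage 2. For each of these 4 measures the groups did not overlap (exact permutation p = 0.1, the smallest that 3 against 3 libraries allow). The groups also lay apart in unaligned reads (7.0% to 7.6% and 7.9% to 11.2%, exact permutation p = 0.1). So did the share of gene counts in the top 50 genes of each library (19.2% to 24.2% and 17.4% to 18.1%, exact permutation p = 0.1). Ambiguous reads overlapped (exact permutation p = 0.3). Passage 1 replicate 2 stood apart from its group: it had the highest mitochondrial share, and its counts differed from those of replicates 1 and 3 by a chi-square per degree of freedom of 101 and 82.6, against 19.6 between replicates 1 and 3 and 23.9 to 33.6 within passage 2. Counts of calls, most lists, gene classes and genes named below are therefore also given without it.

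**Figure D1:**
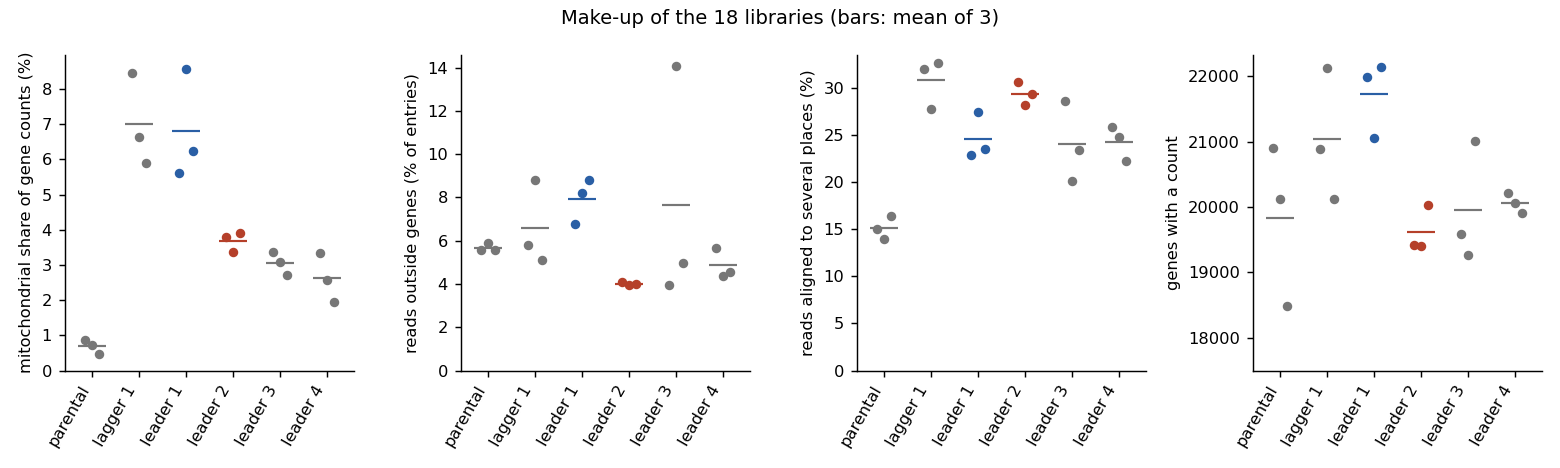
Make-up of each library by group, with 1 point per library and a bar at the mean of 3. From left to right the vertical axes are the mitochondrial share of gene counts, reads outside genes and reads aligned to several places, as percentages, and the number of genes with a count (an axis that does not start at 0). Passage 2 leaders (red) lie apart from passage 1 leaders (blue) in all 4, with a mitochondrial share of 3.36% to 3.90% against 5.60% to 8.57%.

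Between passage 1 and passage 2 leaders, 579 of 16187 genes tested changed, which is 3.58% of them (edgeR quasi-likelihood test, Benjamini-Hochberg adjusted p under 0.05). Of these, 333 were higher in passage 2 (2.06% of genes tested) and 246 were lower (1.52%). A log2 fold change of at least 1 was reached by 139 of the higher and 211 of the lower genes, so the larger changes were more often falls. The split of higher and lower genes was not stable. It was 123 and 136, 85 and 108, and 33 and 38 without passage 1 replicates 1, 2 and 3, 290 and 365 without the filter on low counts and 745 and 792 with the DESeq2 Wald test. The CPM of the 3 and 3 libraries did not overlap for 6195 genes, 38.3% of those tested. Changes in the genes below are to be read against these shares. The count of calls depended on each library. A gene is called lost below where it no longer passed in a fit without that 1 library. The count was 259, 193 and 71 without passage 1 replicates 1, 2 and 3, and 50, 38 and 265 without passage 2 replicates 1, 2 and 3. None of the 579 changed sign in any of these 6 fits in which it was tested.

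**Figure D2:**
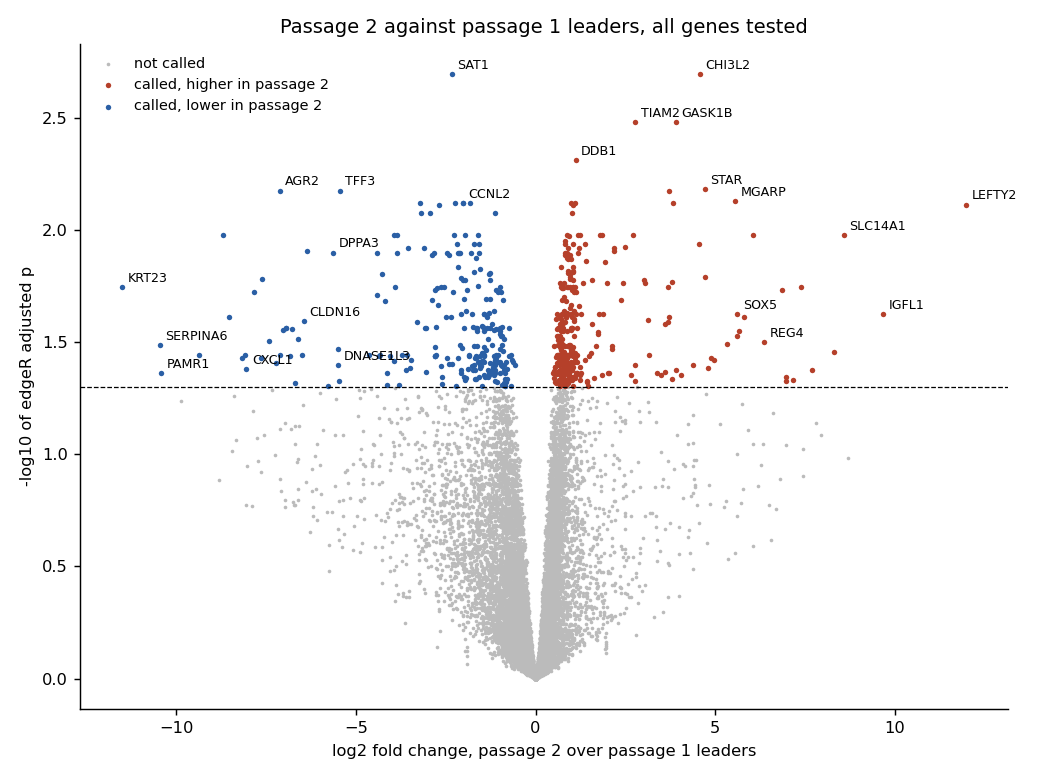
Every gene tested, with the log2 fold change of passage 2 over passage 1 leaders on the horizontal axis and -log10 of the edgeR adjusted p on the vertical axis. The dashed line marks an adjusted p of 0.05, above which lie 333 genes that were higher (red) and 246 that were lower (blue). Some of the genes named in the text are labelled.

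The genes with the strongest evidence of a rise encoded a chitinase-like protein, a Golgi kinase, a Rac activator, a ubiquitin ligase adaptor, a cholesterol carrier and a neuronal adhesion molecule. CHI3L2, a secreted chitinase-like protein, stood at 1.77, 1.44 and 2.2 CPM in passage 1 leaders and at 36, 48 and 45.3 CPM in passage 2 (log2 change 4.57 ± 0.50 SE, edgeR adjusted p = 0.00201). GASK1B, a Golgi-associated kinase, went from 2.1, 2.18 and 1.08 to 28.9, 20.5 and 30.7 CPM (log2 change 3.90 ± 0.51 SE, edgeR adjusted p = 0.0033). TIAM2, an exchange factor that activates the GTPase Rac, went from 1.44, 0.643 and 1.2 to 5.87, 10.3 and 6.56 CPM (log2 change 2.77 ± 0.36 SE, edgeR adjusted p = 0.0033). In each of these genes every passage 2 library lay above every passage 1 library, as the rule for naming them required. STAR, which carries cholesterol into mitochondria for steroid synthesis, was at 7.73, 3.07 and 11 CPM in passage 1 and at 221, 119.9 and 238 CPM in passage 2 (log2 change 4.72 ± 0.67 SE, edgeR adjusted p = 0.00656). CADM2, a synaptic cell adhesion molecule of the immunoglobulin family, rose from 3.57, 0.693 and 2.41 to 26.1, 30.7 and 32 CPM (log2 change 3.72 ± 0.54 SE, edgeR adjusted p = 0.00666). DDB1, the adaptor of the CUL4 ubiquitin ligases and a part of the DNA damage response, was abundant in both groups and rose from 245, 209 and 220.3 to 494, 524 and 448 CPM (log2 change 1.12 ± 0.15 SE, edgeR adjusted p = 0.00487). Its fold was small beside those of the other 5 genes, but its libraries spread little. All 6 passed the test when any 1 of the 6 libraries compared was left out (edgeR adjusted p = 0.0073 to 0.0358).

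The largest rises were in genes that were near absent from passage 1 leaders. LEFTY2, a secreted inhibitor of Nodal signalling, had 0 CPM in all 3 libraries of passage 1 and stood at 26.4, 28.9 and 6.01 CPM in passage 2, at least 457-fold higher against a floor of 3 counts over the passage 1 group (edgeR adjusted p = 0.00769). LEFTY2 has a close paralog, LEFTY1, with which it can share reads. MGARP, a mitochondrial protein, went from 0.11, 0.693 and 0.291 to 17.8, 10.4 and 22.5 CPM (log2 change 5.56 ± 0.83 SE, edgeR adjusted p = 0.00744). LEFTY2 and MGARP passed when any 1 of the 6 libraries was left out (edgeR adjusted p = 0.00932 to 0.0408). SLC14A1, a urea transporter, stood at 0.0368, 0 and 0 CPM in passage 1 and 4.44, 3.23 and 14 CPM in passage 2. Its ratio from summed counts was 558 (95% counting interval 99.8 to 22090) and 274 without passage 2 replicate 3 (edgeR adjusted p = 0.0106). It did not pass without passage 1 replicate 3 (edgeR adjusted p = 0.0549).

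Other large rises were lost when single libraries were left out. OLFM4, a secreted glycoprotein that marks intestinal stem cells, stood at 0.699, 0 and 4.86 CPM in passage 1 and at 138, 66.2 and 109 CPM in passage 2 (log2 change 5.80 ± 1.26 SE, edgeR adjusted p = 0.0245). OLFM4 did not pass without passage 1 replicate 1 or 2 or passage 2 replicate 1 or 2 (edgeR adjusted p = 0.0631 to 0.0934). IGFL1, a secreted member of the insulin-like growth factor family, went from 0.0736, 0 and 0 to 22.8, 1.12 and 56.3 CPM, a ratio of 1045 (95% counting interval 289 to 8634, edgeR adjusted p = 0.0236). The passage 2 libraries of IGFL1 themselves lay far apart, its ratio was 424 without passage 2 replicate 3, and it did not pass without passage 1 replicate 1, 2 or 3 or passage 2 replicate 1 or 3 (edgeR adjusted p = 0.0541 to 0.0998). REG4, a secreted lectin of the gastrointestinal tract, stood at 0.0736, 0.247 and 0 and 1.15, 1.55 and 23.6 CPM. Its ratio of 103 was 13.8 without passage 2 replicate 3, so that 1 library carried most of it, and although it passed with all libraries (edgeR adjusted p = 0.0316) it did not pass when any 1 of the 6 was left out (edgeR adjusted p = 0.0503 to 0.114). SERPINA5, the protein C inhibitor, was at 0.478, 0 and 0.789 and 18.4, 25.1 and 21.2 CPM (log2 change 5.61 ± 1.25 SE, edgeR adjusted p = 0.0298), and it too was lost when any 1 library was left out (edgeR adjusted p = 0.0541 to 0.0993). TCN1, a vitamin B12 binding protein of secretions, was at 1.99, 0.099 and 0.498 and 21, 42.6 and 45.2 CPM (log2 change 5.33 ± 1.24 SE, edgeR adjusted p = 0.0322). TCN1 was lost without passage 1 replicate 2 or 3 or passage 2 replicate 1, 2 or 3 (edgeR adjusted p = 0.0576 to 0.128). The transcription factor SOX5 was at 0.294, 0 and 0 and 5.68, 2.77 and 7.89 CPM (log2 change 5.62 ± 1.16 SE, edgeR adjusted p = 0.0236). SOX5 was lost without passage 1 replicate 2 or 3 or passage 2 replicate 1, 2 or 3 (edgeR adjusted p = 0.052 to 0.0915). OBP2B, a lipocalin with a near-identical neighbour, OBP2A, and therefore uncertain, was at 0.368, 0 and 0.0415 and 6.06, 8.35 and 8.37 CPM (log2 change 5.66 ± 1.24 SE, edgeR adjusted p = 0.0282). OBP2B was lost without passage 1 replicate 2 or 3 or passage 2 replicate 1, 2 or 3 (edgeR adjusted p = 0.0555 to 0.117). With limma-voom in place of edgeR, IGFL1, REG4 and TCN1 did not pass (adjusted p = 0.143, 0.0756 and 0.0721).

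Among the genes that fell, those with the strongest evidence were a polyamine enzyme, a cyclin of splicing and 2 secretory proteins of mucous epithelium. SAT1, the acetyltransferase that starts the breakdown of polyamines, stood at 452, 776 and 415 CPM in passage 1 leaders and at 102, 94.6 and 132 CPM in passage 2 (log2 change -2.32 ± 0.27 SE, edgeR adjusted p = 0.00201). AGR2, a disulfide isomerase of secretory epithelium, went from 26.9, 10.1 and 61.6 to 0.477, 0 and 0.221 CPM (log2 change -7.12 ± 0.98 SE, edgeR adjusted p = 0.00666), and its ratio of 147 was 85.7 without passage 1 replicate 3. TFF3, a trefoil peptide of mucus, went from 21.2, 3.51 and 25 to 0.286, 0.422 and 0.406 CPM (log2 change -5.46 ± 0.75 SE, edgeR adjusted p = 0.00666). AGR2 and TFF3 were lowest in replicate 2 among the passage 1 libraries, yet that library still lay above all of passage 2. CCNL2, a cyclin that takes part in splicing, went from 143, 215 and 187 to 39.7, 47.1 and 47.5 CPM (log2 change -2.02 ± 0.31 SE, edgeR adjusted p = 0.00756), and CCDC57 from 22.4, 29 and 17.7 to 5.25, 4.88 and 6.71 CPM (log2 change -2.03 ± 0.32 SE, edgeR adjusted p = 0.00756). CCDC18-AS1 was at 27.7, 50.4 and 33.7 and 12, 11.1 and 8.59 CPM (log2 change -1.82 ± 0.28 SE, edgeR adjusted p = 0.00756), but the library kit does not mark strand, so its reads cannot be told apart from those of a gene on the other strand. These 6 genes passed when any 1 of the 6 libraries was left out (edgeR adjusted p = 0.000994 to 0.0498).

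The largest falls were in genes that were close to 0 in passage 2. DPPA3, a gene of germ cells and the early embryo, stood at 38.2, 11.3 and 55.4 CPM in passage 1 and 0.955, 0.891 and 0.295 CPM in passage 2 (log2 change -5.63 ± 0.98 SE, edgeR adjusted p = 0.0126). DPPA3 was lost without passage 1 replicate 3 or passage 2 replicate 1 or 2 (edgeR adjusted p = 0.0505 to 0.0662). CLDN16, a claudin of tight junctions, was at 58.6, 1.34 and 130.1 and 1.29, 0 and 0.848 CPM (log2 change -6.46 ± 1.42 SE, edgeR adjusted p = 0.0254). Its ratio of 92.2 was 47.4 without passage 1 replicate 3. CLDN16 was lost without passage 1 replicate 3 or passage 2 replicate 1, 2 or 3 (edgeR adjusted p = 0.0691 to 0.112). FXYD3, a regulator of the sodium pump, was at 7.99, 1.19 and 9.34 and 0.0477, 0.0469 and 0.111 CPM (log2 change -6.35 ± 1.03 SE, edgeR adjusted p = 0.0124). FXYD3 was lost without passage 2 replicate 1 or 2 (edgeR adjusted p = 0.0657 to 0.067). In DPPA3, CLDN16 and FXYD3 passage 1 replicate 2 was again the lowest of its group. KRT23, a keratin, was at 35.7, 1.48 and 6.39 CPM in passage 1 and at 0 in passage 2, at least 373-fold lower against a floor of 3 counts over the passage 2 group (edgeR adjusted p = 0.018). Without passage 1 replicate 1 that bound was 96.1, and KRT23 was lost without passage 2 replicate 1 or 2 (edgeR adjusted p = 0.0744 to 0.0745). SERPINA6, a steroid-binding globulin, was at 12, 0.94 and 8.22 CPM and then at 0, at least 175-fold lower (edgeR adjusted p = 0.0325), a bound of 113 without passage 1 replicate 1. SERPINA6 was lost without passage 1 replicate 1 or 3 or passage 2 replicate 1, 2 or 3 (edgeR adjusted p = 0.0657 to 0.115). PAMR1, a secreted protein with a peptidase-like domain, was at 2.72, 0.198 and 17.9 CPM and then at 0, at least 165-fold lower (edgeR adjusted p = 0.0435), a bound of 38.1 without passage 1 replicate 3. PAMR1 was lost without passage 1 replicate 1 or 3 or passage 2 replicate 1, 2 or 3 (edgeR adjusted p = 0.0656 to 0.148). DNASE1L3, a secreted nuclease, was at 8.54, 0.594 and 6.77 and 0, 0.141 and 0.184 CPM (log2 change -5.50 ± 1.29 SE, edgeR adjusted p = 0.0401). DNASE1L3 was lost without passage 1 replicate 1 or 3 or passage 2 replicate 1, 2 or 3 (edgeR adjusted p = 0.085 to 0.148). With limma-voom KRT23, PAMR1, CLDN16 and DNASE1L3 did not pass (adjusted p = 0.052, 0.125, 0.175 and 0.0762). PAMR1 was not tested in the fit of only the 6 libraries compared.

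**Figure D3:**
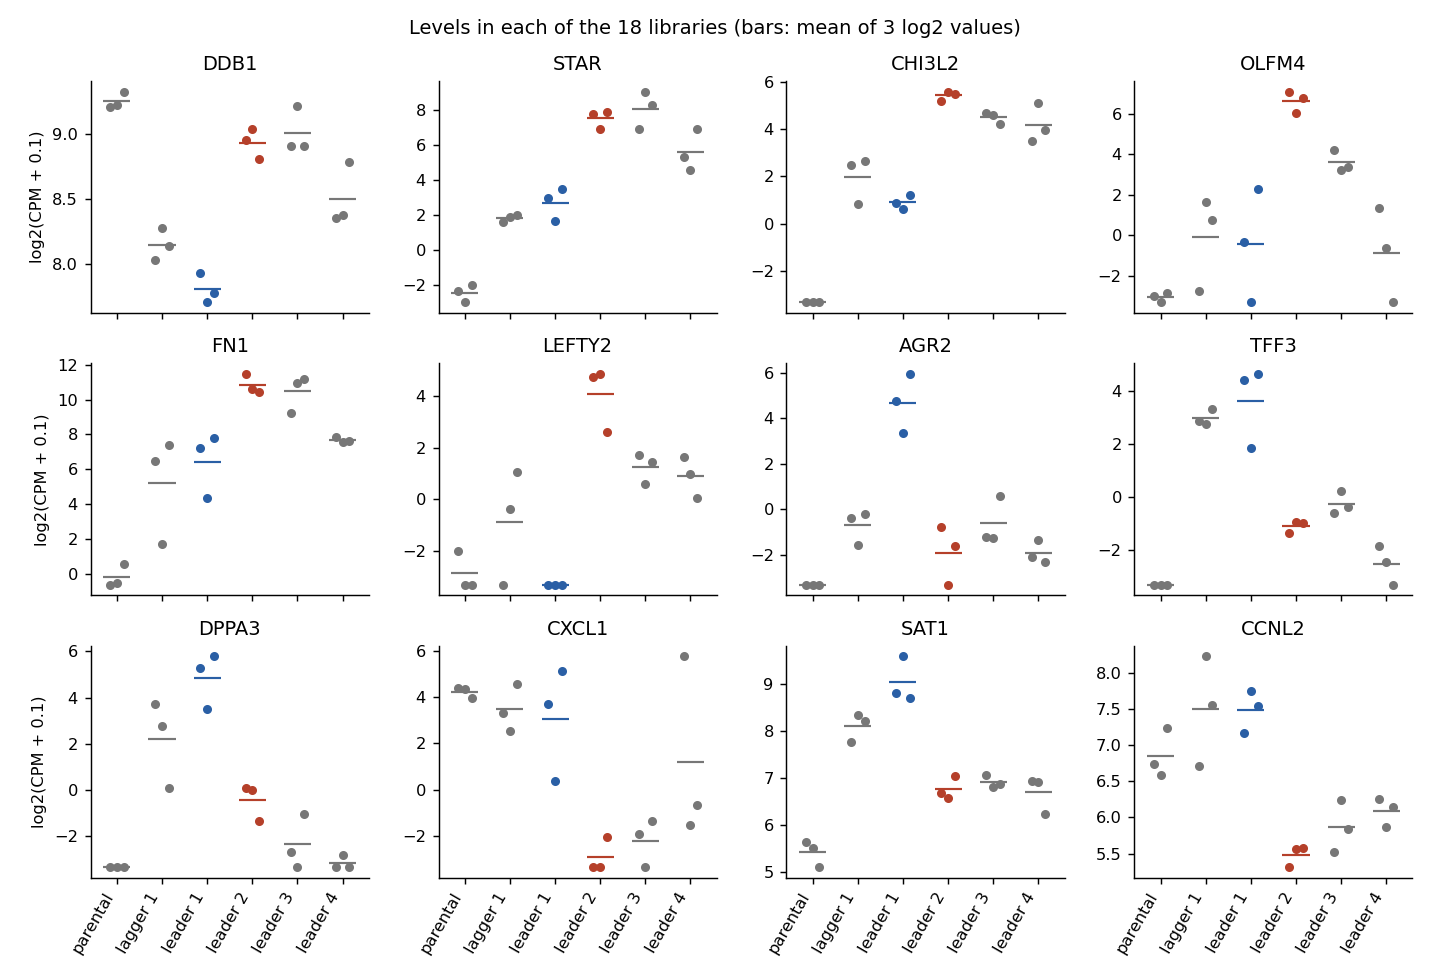
Levels of 12 genes, as log2(CPM + 0.1), in each of the 18 libraries, with passage 1 leaders in blue, passage 2 leaders in red, other groups in grey and a bar at the mean of 3. In each panel the 3 passage 2 leaders lie on 1 side of the 3 passage 1 leaders, from the rise of DDB1 (225 to 489 CPM) to LEFTY2, which had no counts in passage 1.

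Of the genes of DNA replication, 4 rose in passage 2 leaders, 3 of them subunits of the MCM2 to MCM7 helicase that unwinds DNA. MCM3 stood at 100.1, 92.7 and 83.4 CPM in passage 1 and at 186, 184 and 149 CPM in passage 2 (log2 change 0.91 ± 0.17 SE, edgeR adjusted p = 0.0152). MCM4 went from 222, 161 and 174 to 331, 356 and 307 CPM (log2 change 0.84 ± 0.18 SE, edgeR adjusted p = 0.0207) and MCM2 from 175, 87.1 and 108 to 247, 266 and 229.7 CPM (log2 change 1.0 ± 0.27 SE, edgeR adjusted p = 0.0468). MCM10, which helps to load the helicase's partners, went from 25.1, 20.9 and 24.1 to 37.1, 37.4 and 39.5 CPM (log2 change 0.70 ± 0.19 SE, edgeR adjusted p = 0.0492). The other 27 of 31 genes tested did not pass and none fell. The median log2 fold change of the list was 0.46, against -0.01 over all genes tested, and 25 members had a positive value. MCM7 was at 0.73 ± 0.22 (edgeR adjusted p = 0.0789) and CDC45, its partner in the active helicase, at 0.62 ± 0.17 (edgeR adjusted p = 0.0567). Leaving out 1 library left 0 to 3 calls, 1 of them without passage 1 replicate 2, with a median of 0.41 to 0.57, and scaling by DESeq2 size factors left 2, without MCM2 and MCM10. With limma-voom MCM10 did not pass (adjusted p = 0.051).

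Of 31 genes of mitosis, 2 rose: KIF20A, a kinesin of cell division, from 58.3, 44.6 and 43.1 to 85.3, 116 and 86 CPM (log2 change 0.98 ± 0.22 SE, edgeR adjusted p = 0.0274), and FOXM1, a transcription factor of the G2 and M phases, from 86, 63.9 and 70.1 to 136, 161 and 127 CPM (log2 change 0.95 ± 0.25 SE, edgeR adjusted p = 0.045). The list's median was 0.28 with 22 positive values, and none of its genes fell. PLK1, a mitotic kinase, was at 0.72 ± 0.24 and TPX2, a spindle protein, at 0.75 ± 0.29 (edgeR adjusted p = 0.0988 and 0.143). At most 1 mitosis gene was called when any 1 library was left out, and none without passage 1 replicate 2 (median 0.17). FOXM1 did not pass with DESeq2 size factors.

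Because the 4 called members of the replication list all rose, the list's promoters were read from RefSeq on GRCh38.p14, from 250 bases before to 50 after each gene's start. The core site of the E2F factors, which drive S phase genes, was searched as TTTCCCGC, TTTGGCGC or TTTCGCGC on both strands. MCM2 and MCM3 held it, MCM10 did not, and MCM4 was not searched. It was present in 17 of 27 list promoters (63.0%) and in 763 of all 27305 (2.79%). One window of the MCM3 promoter, at chr6:52284884-52284941 on the minus strand, is shown because MCM3 had the smallest adjusted p of the list, with the E2F letters in capitals.
MCM3: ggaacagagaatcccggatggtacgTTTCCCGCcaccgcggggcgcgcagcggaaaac

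Of 39 genes of the actin cytoskeleton and of motility 5 rose, none fell and 34 did not pass, and the median was 0.31 with 27 positive values. MSN, moesin, which ties actin to the membrane, stood at 396, 244 and 336 CPM in passage 1 and at 549, 586 and 537 CPM in passage 2 (log2 change 0.78 ± 0.16 SE, edgeR adjusted p = 0.0181). DIAPH1, a formin that builds actin filaments, went from 93.6, 119 and 80.6 to 178, 174 and 145 CPM (log2 change 0.76 ± 0.19 SE, edgeR adjusted p = 0.0365). FLNA, filamin, which crosslinks filaments, went from 340.4, 208 and 452 to 799, 866 and 681 CPM (log2 change 1.23 ± 0.32 SE, edgeR adjusted p = 0.044). Passage 1 replicate 2 was the lowest library for both MSN and FLNA. VCL, vinculin of focal adhesions, went from 156, 276 and 154 to 356, 341 and 321 CPM (log2 change 0.80 ± 0.21 SE, edgeR adjusted p = 0.0444), and ACTN4, an actinin, from 32.1, 42.6 and 29.1 to 67.8, 78.9 and 67.5 CPM (log2 change 1.04 ± 0.28 SE, edgeR adjusted p = 0.0497). TLN1, the talin that activates integrins, was at 0.95 ± 0.27 and ACTB at 0.48 ± 0.14, with edgeR adjusted p = 0.061 and 0.0724. The list had 4 calls without passage 1 replicate 2, 0 to 1 when any other library was left out, and 3 with DESeq2 size factors.

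SRF, the serum response factor that controls many actin genes, rose as the only called member of 28 immediate early genes, from 20.9, 21.5 and 17.6 to 52.1, 51.6 and 47.1 CPM (log2 change 1.33 ± 0.26 SE, edgeR adjusted p = 0.0171). It was lost without passage 1 replicate 3 or passage 2 replicate 1 or 2 (edgeR adjusted p = 0.067 to 0.0805). FOS, its classical target, was at 0.82 ± 0.26 and FOSL1 at 1.63 ± 0.56 (edgeR adjusted p = 0.0843 and 0.109). The CArG box, the sequence that this factor binds, was searched in the promoters of the 5 called actin genes and was found in FLNA alone, in 5 of 33 promoters of the actin list (15.2%) and in 1.29% of all promoters. The FLNA window lies at chrX:154374694-154374753 on the minus strand, with the box in capitals.
FLNA: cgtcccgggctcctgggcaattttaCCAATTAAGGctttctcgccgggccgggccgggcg

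Adhesion and matrix lists held 1 or 2 calls each. FN1, fibronectin, was among the most abundant genes that rose, from 146, 20.1 and 219 to 2862, 1535 and 1385 CPM (log2 change 3.91 ± 1.0 SE, edgeR adjusted p = 0.0418). Passage 1 replicate 2 held the lowest value, and FN1 was not called when any 1 library was left out (edgeR adjusted p = 0.0623 to 0.139). S100A4, a calcium-binding protein linked to motility and a member of the same mesenchymal list, fell from 1353, 4250 and 2028 to 737, 859 and 1229 CPM (log2 change -1.43 ± 0.34 SE, edgeR adjusted p = 0.0331). S100A4 was lost without passage 1 replicate 2 or 3 or passage 2 replicate 1 or 2 (edgeR adjusted p = 0.0701 to 0.142). The other 15 of 17 mesenchymal genes did not pass, and the list's median was 0.18. Of 29 integrin, laminin and collagen genes 1 fell, LAMB2, a laminin chain, from 19.9, 42.5 and 27.7 to 7.64, 5.44 and 6.93 CPM (log2 change -2.17 ± 0.41 SE, edgeR adjusted p = 0.0146). LAMB2 was lost without passage 2 replicate 1 or 2 (edgeR adjusted p = 0.0662 to 0.0803). ITGA5, the fibronectin receptor subunit, was at 0.87 ± 0.26 (edgeR adjusted p = 0.0691). Of 24 matrix proteases and inhibitors MMP24, a membrane-type metalloprotease, rose from 5.67, 16 and 4.86 to 38.9, 35.7 and 34.3 CPM (log2 change 2.04 ± 0.53 SE, edgeR adjusted p = 0.0435). MMP24 was lost without passage 1 replicate 1 or 3 or passage 2 replicate 1, 2 or 3 (edgeR adjusted p = 0.0752 to 0.165). Of 20 targets of the growth regulators YAP and TEAD 2 rose, NT5E, the ectonucleotidase CD73, from 6.29, 0.247 and 6.89 to 19.9, 94.4 and 75.1 CPM (log2 change 3.80 ± 0.75 SE, edgeR adjusted p = 0.017) and ASAP1, a regulator of focal adhesions, from 31.2, 21.8 and 24.6 to 48.5, 42.2 and 44.9 CPM (log2 change 0.81 ± 0.19 SE, edgeR adjusted p = 0.0359). NT5E was lost without passage 1 replicate 3 or passage 2 replicate 2 (edgeR adjusted p = 0.0551 to 0.0679), and ASAP1 was lost without passage 1 replicate 2 or 3 or passage 2 replicate 1, 2 or 3 (edgeR adjusted p = 0.0691 to 0.141). Of 21 genes of the TGF-beta response TGFBI, a secreted matrix protein, fell from 12.8, 8.91 and 4.57 to 1.34, 2.34 and 0.848 CPM (log2 change -2.54 ± 0.51 SE, edgeR adjusted p = 0.018). TGFBI was lost without passage 1 replicate 1 or passage 2 replicate 1, 2 or 3 (edgeR adjusted p = 0.0516 to 0.0965).

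Epithelial genes had a median of -0.66, and of the 21 tested 2 fell, none rose and 19 did not pass. AGR2 is described above. CLDN1, a claudin of tight junctions, went from 208, 206 and 213 to 101, 68.9 and 92.7 CPM (log2 change -1.25 ± 0.24 SE, edgeR adjusted p = 0.0156), a fall by which all passage 2 libraries lay below all of passage 1. CLDN1 was lost without passage 1 replicate 3 or passage 2 replicate 1 or 2 (edgeR adjusted p = 0.0573 to 0.0909). EHF, an epithelial transcription factor, was at 33.6, 4.5 and 29.3 and 1.29, 0.516 and 0.479 CPM (-4.89 ± 1.32, edgeR adjusted p = 0.0562), and CDH1 was at -2.63 ± 1.36 (edgeR adjusted p = 0.279). Of the 21, 16 had a negative value, and 12 of them without passage 1 replicate 2, when the median was -0.42 and AGR2 and CLDN1 were still called.

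The 2 chemokine genes CXCL1 and CXCL2 of the NF-kB list fell while SOD2, the mitochondrial superoxide dismutase, rose. CXCL2, a chemokine that attracts neutrophils, stood at 8.39, 18.2 and 12 CPM in passage 1 and at 0.573, 0.703 and 0.516 CPM in passage 2 (log2 change -4.42 ± 0.80 SE, edgeR adjusted p = 0.0126). CXCL2 was lost without passage 2 replicate 1 or 2 (edgeR adjusted p = 0.0647 to 0.067). NFKBIZ, a nuclear cofactor of NF-kB, went from 28.6, 52.1 and 29.2 to 10.2, 18.3 and 14.4 CPM (log2 change -1.35 ± 0.30 SE, edgeR adjusted p = 0.0274). NFKBIZ was lost without passage 1 replicate 2 or 3 or passage 2 replicate 1, 2 or 3 (edgeR adjusted p = 0.0573 to 0.132). CXCL1, a close paralog of CXCL2, went from 12.8, 1.19 and 34.8 to 0, 0 and 0.147 CPM (log2 change -8.05 ± 2.05 SE, edgeR adjusted p = 0.0416). Its ratio of 293 was 136 without passage 1 replicate 3. CXCL1 was lost without passage 1 replicate 1 or 3 or passage 2 replicate 1, 2 or 3 (edgeR adjusted p = 0.0668 to 0.163), and with limma-voom (adjusted p = 0.231). SOD2 went from 76.5, 83.8 and 65.5 to 137, 120.4 and 127 CPM (log2 change 0.77 ± 0.17 SE, edgeR adjusted p = 0.0261). SOD2 was lost without passage 1 replicate 1 or 3 or passage 2 replicate 1, 2 or 3 (edgeR adjusted p = 0.0554 to 0.117). The passage 1 libraries of CXCL1 lay far apart, and so did those of the chemokine CXCL8, at 62, 7.17 and 106 CPM against 0.286, 4.08 and 0.848 CPM in passage 2 (-5.08 ± 1.76, edgeR adjusted p = 0.111). The median of the 23 genes tested was -0.46, but 0.51 without passage 1 replicate 2, so that the sign of the median rested on that library, and 19 genes did not pass.

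The promoters of CXCL1, CXCL2 and NFKBIZ were searched for the kB motif, the sequence bound by NF-kB, and all 3 held it. It was present in 10 of 19 promoters of the list (52.6%) and in 1562 of all 27305 (5.72%). The 3 windows are shown because these genes fell, with the motif in capitals. The CXCL1 window is at chr4:73869289-73869348 on the plus strand, that of CXCL2 at chr4:74099239-74099298 on the minus strand and that of NFKBIZ at chr3:101827742-101827801 on the plus strand.
CXCL1: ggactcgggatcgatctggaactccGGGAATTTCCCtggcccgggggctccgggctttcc
CXCL2: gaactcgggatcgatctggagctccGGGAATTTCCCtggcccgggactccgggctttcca
NFKBIZ: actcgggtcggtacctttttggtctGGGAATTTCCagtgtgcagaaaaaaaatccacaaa
CXCL1 and CXCL2 shared the same 11 letters. A match describes the letters and shows no binding.

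Most genes of the ribosome and of the respiratory chain had lower values in passage 2 leaders. Of 44 cytosolic ribosomal protein genes 6 fell, none rose and 38 did not pass, and all 44 had a negative value (median -0.62). RPS21 stood at 118, 100 and 138 CPM in passage 1 and at 34.3, 44.4 and 64.7 CPM in passage 2 (log2 change -1.31 ± 0.30 SE, edgeR adjusted p = 0.0304), RPL37 at 308, 364 and 376 and 146, 177 and 228 CPM (log2 change -0.93 ± 0.22 SE, edgeR adjusted p = 0.0325) and RPS20 at 352, 396 and 404 and 136, 174 and 227 CPM (log2 change -1.10 ± 0.27 SE, edgeR adjusted p = 0.0371). RPS27, RPL27 and RPL23 also fell, with log2 changes of -0.92, -1.15 and -0.79. In these genes passage 2 replicate 1 was the lowest library and replicate 3 the highest of its group. All 44 also had a negative value when any 1 library was left out, but 0 to 4 were then called, 1 of them without passage 1 replicate 2. Ribosomal protein genes have many processed pseudogenes that can take part of their reads.

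The 13 mitochondrially encoded genes all had lower values in passage 2, from -0.91 to -0.52 with a median of -0.66, and none passed the edgeR test. At an unadjusted p under 0.05 there were 10, and the DESeq2 Wald test called 4 of them lower. MT-CO1, a cytochrome oxidase subunit, stood at 4608, 7190 and 4628 CPM in passage 1 and at 3401, 2540 and 2795 CPM in passage 2 (log2 change -0.91 ± 0.27 SE, edgeR adjusted p = 0.0695). MT-CO3, another subunit, was at 3043, 4858 and 3585 and 2181, 1973 and 2257 CPM (log2 change -0.84 ± 0.24 SE, edgeR adjusted p = 0.0628). For all 13 the groups did not overlap, beside 38.3% of genes at large, and passage 1 replicate 2 was high, the median being -0.46 without it. Of 43 nuclear genes of the respiratory chain 3 fell and none rose, with a median of -0.48. UQCRQ of complex III went from 239.7, 308 and 286 to 84.5, 124 and 172 CPM (log2 change -1.13 ± 0.29 SE, edgeR adjusted p = 0.0435), NDUFB9 of complex I from 128, 128 and 142 to 58, 73.8 and 89.6 CPM (log2 change -0.85 ± 0.22 SE, edgeR adjusted p = 0.0435) and COX7B of complex IV from 162, 167 and 185 to 38.5, 59.7 and 84.5 CPM (log2 change -1.49 ± 0.40 SE, edgeR adjusted p = 0.0498). SDHA of complex II was at 0.64 ± 0.17 (edgeR adjusted p = 0.0533), in the other direction. At most 1 of the 43 was called when 1 library was left out, and none without passage 1 replicate 2.

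**Figure D4:**
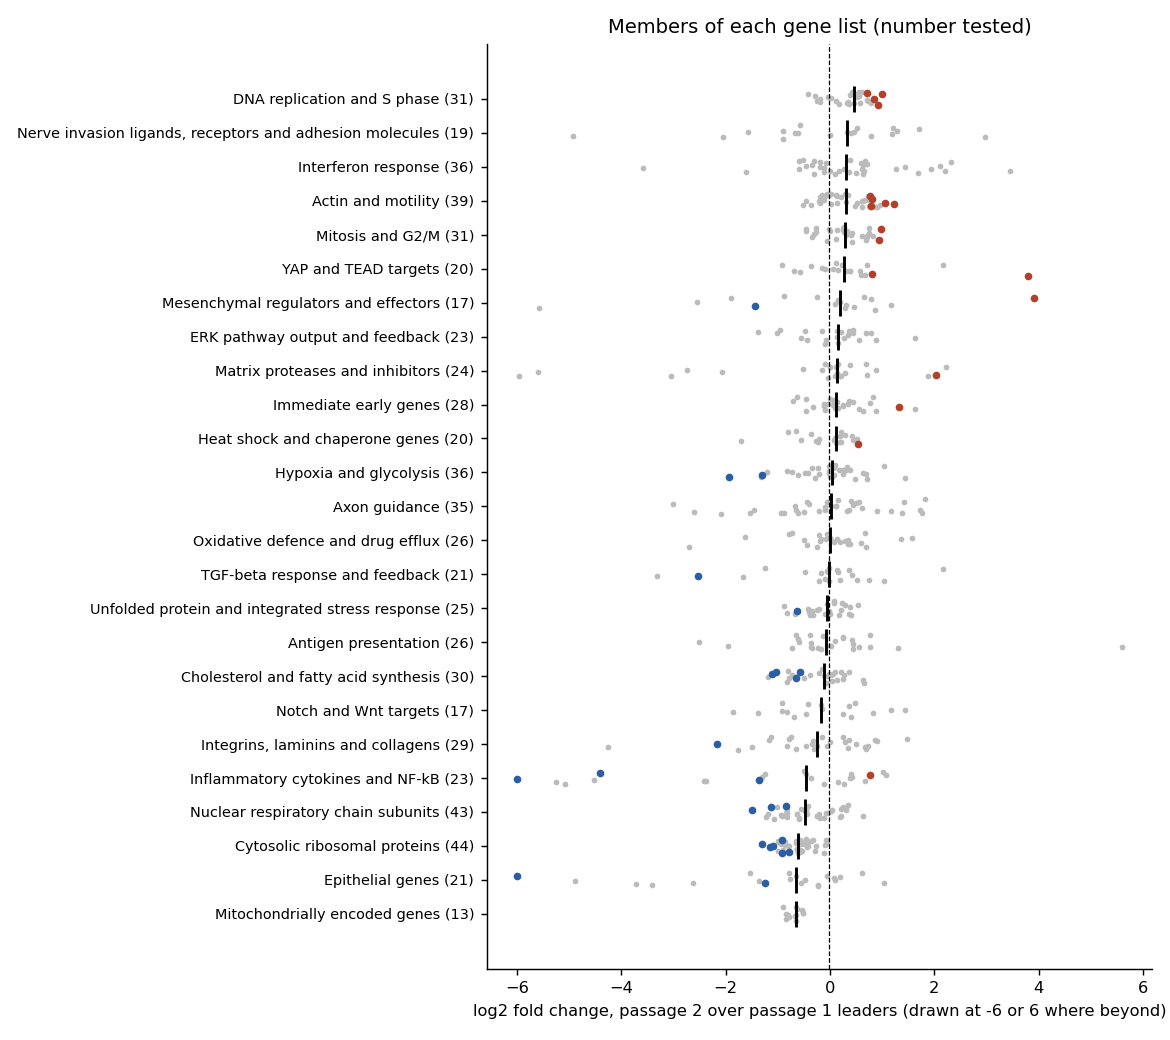
Log2 fold change of passage 2 over passage 1 leaders for each member of the 25 pathway lists, ordered by the median (black bar), with the number of genes tested in brackets. Called genes are red where higher and blue where lower, grey points did not pass, values beyond -6 or 6 are drawn there, and the dashed line is the median of all genes tested, -0.01. Medians ran from -0.66 for mitochondrially encoded genes to 0.46 for DNA replication.

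Transcript length moved with these changes. Genes were put in 5 classes of equal size by the length of their longest annotated transcript, which need not be the one expressed. For the ribosomal protein genes RPL37 and RPS27 that length was 7686 and 625 bases. The offsets used below rest on the same transcripts. In the class with the shortest transcripts (75 to 1729 bases) 9 rose and 69 fell, with a median of -0.39, and in the class with the longest (5563 bases and more) 92 rose and 37 fell, with a median of 0.15. Protein-coding genes alone were put in 5 classes of their own, with other limits. Their medians were -0.22 in the shortest (207 to 2161 bases) and 0.16 in the longest (5917 bases and more). Without passage 1 replicate 2 the medians over all genes were -0.36 and 0.14, with 3 rises and 26 falls among the shortest and 28 rises and 26 falls among the longest. Passage 4 against passage 3 leaders gave -0.06 and 0.04 over all genes. With offsets for transcript length and GC content, an alternative chosen after the data were seen, the medians of the 5 length classes lay between -0.07 and 0.01 and 1473 genes were called. The ribosomal list then had a median of -0.53 with 11 calls, the nuclear respiratory list -0.29 with 13 lower and 3 higher, the mitochondrially encoded genes -0.25 with none, the replication list 0.44 with 7 and the actin list 0.27 with 7 higher and 1 lower. The library shares that differed between the groups, given above, moved with this pattern, and their part in it was not tested.

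Noncoding RNA was called lower more often than higher. The library kit does not mark strand, so reads of antisense RNAs cannot be told apart from those of genes on the other strand. Of 798 antisense RNAs 24 fell and 1 rose (median -0.63), of 617 lincRNAs 22 fell and 2 rose (median -0.66), and of 133 processed transcripts, a class of noncoding RNA with many snoRNA host genes, 13 fell and 2 rose (median -0.69). Of 13035 protein-coding genes 157 fell and 322 rose (median 0.06). Without passage 1 replicate 2 the falls were 4, 7 and 5 in the noncoding classes and 84 in protein-coding genes, against 77 rises. The medians of the 3 noncoding classes were below -0.55 when any 1 of the 6 libraries was left out, though the calls were down to 0, 0 and 1 without passage 2 replicate 2. With the length and GC offsets they were -0.43, -0.44 and -0.63. NEAT1, the RNA that builds paraspeckles in the nucleus, went from 167, 369.5 and 252 to 68.5, 45.6 and 50.2 CPM (log2 change -2.26 ± 0.39 SE, edgeR adjusted p = 0.0106), and GAS5, a snoRNA host gene, from 114, 179.7 and 137 to 27.5, 34.9 and 47.6 CPM (log2 change -1.97 ± 0.33 SE, edgeR adjusted p = 0.0106). MALAT1, a nuclear RNA, was at -1.89 ± 0.51 (edgeR adjusted p = 0.0513). These 3 were chosen after their values were seen. NEAT1 was lost without passage 2 replicate 2 and GAS5 without passage 2 replicate 1 or 2 (edgeR adjusted p = 0.0573 to 0.0639). The share of reads outside genes, which was lower in every passage 2 library, moved in the same direction, and its part in the result was not tested.

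**Figure D5:**
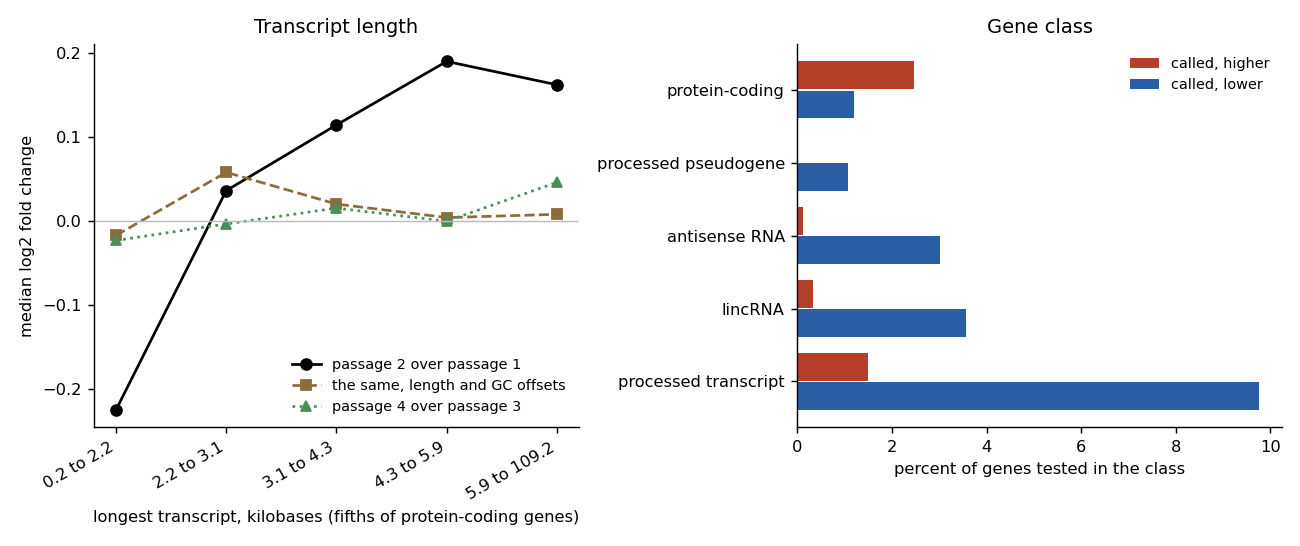
Left, the median log2 fold change of protein-coding genes in 5 classes of longest transcript length (kilobases): passage 2 over passage 1 leaders is at -0.22 in the shortest, 0.19 at its highest and 0.16 in the longest, and the lines with length and GC offsets and for passage 4 over passage 3 stay between -0.02 and 0.06. Right, the percentage of genes tested in each gene class that were called higher (red) or lower (blue), from 0 higher in processed pseudogenes to 9.77% lower in processed transcripts.

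Metabolic and stress lists held 1 to 4 calls each, to be read beside the 3.58% of all genes tested that were called. Of 30 genes of cholesterol and fatty acid synthesis 4 fell and none rose. HSD17B7, an enzyme of cholesterol synthesis, went from 41.5, 43.2 and 36.7 to 21.1, 18.2 and 19.6 CPM (log2 change -1.04 ± 0.21 SE, edgeR adjusted p = 0.0188), and INSIG1, which holds back the sterol-sensing SREBP pathway, from 186, 413 and 199 to 117, 137 and 117 CPM (log2 change -1.10 ± 0.27 SE, edgeR adjusted p = 0.0362). FDPS and FDFT1, which make farnesyl diphosphate and squalene, were at -0.64 ± 0.16 and -0.58 ± 0.15 (edgeR adjusted p = 0.0379 and 0.04). ACLY, which makes the acetyl-CoA for both pathways, was at 0.65 ± 0.17 (edgeR adjusted p = 0.0505), in the other direction, and the list's median was -0.11. The sterol regulatory element, searched as TCACNCCAC on both strands, was in none of the 3 promoters searched among the 4 genes, in 1 of 24 of the list (4.17%) and in 1.15% of all. At most 1 of these genes was called when 1 library was left out, none without passage 1 replicate 2.

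Of 36 hypoxia and glycolysis genes 2 fell: ADM, the peptide adrenomedullin, from 218, 103 and 231 to 43.4, 35.9 and 64.3 CPM (log2 change -1.94 ± 0.41 SE, edgeR adjusted p = 0.0229) and ANKRD37, a target of hypoxia-inducible factor, from 22.1, 39.4 and 36 to 11.3, 13.5 and 14.8 CPM (log2 change -1.30 ± 0.25 SE, edgeR adjusted p = 0.0156). ADM was lost without passage 1 replicate 1 or 3 or passage 2 replicate 1 or 2 (edgeR adjusted p = 0.0603 to 0.117), and ANKRD37 was lost without passage 1 replicate 3 or passage 2 replicate 1 or 2 (edgeR adjusted p = 0.0679 to 0.0891). The glycolytic genes HK1 and PFKL were at 0.64 ± 0.21 and 0.68 ± 0.23 (edgeR adjusted p = 0.0942 and 0.102). ATF4, the regulator of the integrated stress response, fell as 1 of 25 genes of that list, from 119, 137 and 104 to 75.8, 70.5 and 86.5 CPM (log2 change -0.63 ± 0.16 SE, edgeR adjusted p = 0.0386). STIP1, a co-chaperone of HSP90, rose as 1 of 20 heat shock genes, from 243, 208 and 223 to 304, 343 and 334 CPM (log2 change 0.54 ± 0.14 SE, edgeR adjusted p = 0.0406), and was not called with DESeq2 size factors. ATF4 and STIP1 were not called when any 1 library was left out (edgeR adjusted p = 0.0566 to 0.169 and 0.0658 to 0.156).

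Besides the mitochondrially encoded genes, 7 other pathway lists held no gene that passed the edgeR test, among them those closest to the nerve. Of 19 nerve invasion ligands, receptors and adhesion molecules tested, ARTN, a ligand of the GDNF family that acts on nerves, was nearest, at 1.66, 0.544 and 2.28 CPM in passage 1 and 0.0477, 0.0938 and 0 CPM in passage 2 (log2 change -4.92 ± 1.33 SE, edgeR adjusted p = 0.0516). CXCR4, a chemokine receptor, was at -1.57 ± 0.71 and NGFR, the low-affinity neurotrophin receptor, at 1.21 ± 0.48 (edgeR adjusted p = 0.209 and 0.158). Of 35 axon guidance genes the semaphorin receptors NRP1 and NRP2 were nearest, NRP1 at 17.9, 18.8 and 18.1 and 37.6, 67.1 and 80 CPM (1.76 ± 0.54, edgeR adjusted p = 0.0793) and NRP2 at 18.6, 21.5 and 7.51 and 30.9, 54.1 and 37.9 CPM (1.37 ± 0.43, edgeR adjusted p = 0.0821). The libraries of both NRP1 and NRP2 did not overlap between the groups, but they spread widely within passage 2. Among 36 interferon response genes IFI27 was nearest (-3.59 ± 1.03, edgeR adjusted p = 0.0624). The 26 antigen presentation genes had a median of -0.07. The lists of ERK output (23 genes), Notch and Wnt targets (17) and oxidative defence (26) had medians of 0.16, -0.18 and 0.00. At an unadjusted p under 0.05 these 7 lists held 6, 8, 8, 5, 4, 3 and 5 genes in the order given. The DESeq2 Wald test called 1, 5, 5, 3, 1, 1 and 3 of them, a test that called 1537 genes in all against 579. A gene that missed the threshold was not shown to be the same in both groups.

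Many markers of the cell types found in nerve tissue were at or near 0, but COL1A2, COL3A1 and RGS5 stood at 287 CPM or more in all 6 libraries. Of 12 Schwann cell markers 5 passed the filter on low counts and none was called. FOXD3 and NCMAP had 0 counts in all 6 libraries, SOX10 had none in passage 2, and the summed level of the list was 31.3 to 64.6 CPM in passage 1 and 33.2 to 38.7 CPM in passage 2. Fibroblast markers summed to 1008 to 2313 CPM and to 827 to 1519 CPM, most of it from COL1A2 and COL3A1. COL1A2 stood at 755, 444 and 959.8 and 441, 636 and 287 CPM (edgeR adjusted p = 0.349). PDGFRA, the receptor for platelet-derived growth factor, was the 1 fibroblast marker of 8 tested that was called higher, from 7.21, 4.35 and 18.6 to 51.1, 47.6 and 92.3 CPM (log2 change 2.66 ± 0.69 SE, edgeR adjusted p = 0.0444). POSTN was not called, at 3.83, 0.4 and 3.53 CPM in passage 1 and 43.7, 15.75 and 88.8 CPM in passage 2. DCN, a matrix proteoglycan of fibroblasts, was at 6.4, 0.594 and 5.27 CPM in passage 1 and 0.334, 0 and 0.111 CPM in passage 2. Of the 8 markers, 3 had a positive value and 5 a negative one. The DESeq2 Wald test called 2 of them higher and 1 lower, and limma-voom 2 higher and 0 lower. PDGFRA was not called when any 1 library was left out (edgeR adjusted p = 0.067 to 0.153).

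Leukocyte markers summed to 3.57 to 7.17 CPM in passage 1 and 7.92 to 16.6 CPM in passage 2, with TYROBP and LYZ at 0 in all 6 libraries and none of 6 tested called. Endothelial and pericyte markers summed to 541 to 1661 and 1030 to 1332 CPM, most of it from RGS5, with none of 8 called. Of 5 neuron and muscle markers tested 2 fell from low levels: SNAP25, of the synaptic vesicle machinery, from 0.515, 0.693 and 5.81 to 0, 0 and 0.0369 CPM (edgeR adjusted p = 0.0274), and RBFOX3, a splicing factor of neurons, from 0.736, 3.27 and 1.58 to 0, 0 and 0.0369 CPM (edgeR adjusted p = 0.0307). Each had 1 count in passage 2, and SNAP25 did not pass with limma-voom (adjusted p = 0.0592). SNAP25 was lost without passage 1 replicate 3 or passage 2 replicate 1, 2 or 3 (edgeR adjusted p = 0.0677 to 0.124) and RBFOX3 without passage 1 replicate 2 or 3 or passage 2 replicate 1, 2 or 3 (edgeR adjusted p = 0.0694 to 0.13). The neurofilament gene NEFL was at 0 in all 6 libraries. Erythroid markers summed to at most 0.859 CPM in any of the 6 libraries.

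The first step of the selection was set against the last, from passage 3 to passage 4 leaders, which shares no library with it. Between passage 4 and passage 3 leaders 225 genes changed (1.39% of those tested), 105 higher (0.649%) and 120 lower (0.741%). The difference between the 2 steps, tested in the same fit, was called for 316 genes (1.95%), 198 with a higher value in the first step (1.22%) and 118 with a lower one (0.729%). STAR was at 4.72 in the first step and at -2.40 in the last (difference 7.12 ± 0.89, edgeR adjusted p = 0.00433), MGARP at 5.56 and -3.14 (difference 8.71 ± 1.09, edgeR adjusted p = 0.00433) and GASK1B at 3.90 and -0.82 (difference 4.73 ± 0.67, edgeR adjusted p = 0.00847). DDB1 was at 1.12 and -0.50 (difference 1.62 ± 0.21, edgeR adjusted p = 0.0057). Of these 4 genes MGARP alone was called at the last step, where it fell (edgeR adjusted p = 0.0402). TRIM24, a nuclear receptor cofactor, was at 0.59 in the first step, where it did not pass. It was at -1.68 in the last, where it fell (difference 2.26 ± 0.32, edgeR adjusted p = 0.00847). Passage 3 replicate 2 was the highest of its group for STAR, MGARP, DDB1 and TRIM24. The ratio of passage 3 to passage 4 means went from 5.29 to 3.57 for STAR without it. For MGARP it went from 8.86 to 7.49, for DDB1 from 1.41 to 1.31 and for TRIM24 from 3.19 to 2.85. HBB, a haemoglobin gene, stood at 21010 CPM in that library, against 0.553 and 0.694 in passage 3 replicates 1 and 3.

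In the other direction, RSRP1 was at -1.61 in the first step and was at 1.01 in the last (difference -2.62 ± 0.39, edgeR adjusted p = 0.00851). Its first-step call was lost without passage 2 replicate 1 or 2 (edgeR adjusted p = 0.0573 to 0.0628). HIVEP1, a zinc finger transcription factor, fell by 1.54 and was then at 0.96 (difference -2.5 ± 0.41, edgeR adjusted p = 0.0116), and MAPK8IP3, a scaffold of JNK signalling and axonal transport, fell by 2.07 and was then at 1.19 (difference -3.27 ± 0.56, edgeR adjusted p = 0.0135). The first-step call of HIVEP1 was lost without passage 1 replicate 3 or passage 2 replicate 1, 2 or 3 (edgeR adjusted p = 0.0513 to 0.0657), and that of MAPK8IP3 without passage 1 replicate 3 or passage 2 replicate 1 or 3 (edgeR adjusted p = 0.0541 to 0.0925). AKAP12, a scaffold of protein kinase A, was at -1.85 in the first step, where it did not pass, and at 3.43 in the last (difference -5.28 ± 0.87, edgeR adjusted p = 0.0116). Its level was 15.3, 14.8 and 16.7 CPM in passage 3 and 403, 37 and 63.3 CPM in passage 4, and the ratio of means fell from 10.8 to 3.22 without passage 4 replicate 1. HSPA6, a heat shock protein with a near-identical pseudogene and therefore uncertain, was at -0.56 and 2.5 (difference -3.06 ± 0.49, edgeR adjusted p = 0.0116). For the 10 genes compared here between the steps the difference between the steps was called in all 12 fits that left out 1 library. The count of 316 was 68 without passage 3 replicate 2, which had 24.8% unaligned reads and 14.1% reads outside genes, and 67 to 202 when any other of the 12 libraries was left out except passage 1 replicate 2, which left 227.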

How the data were processed

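Complementary DNA was made from 2 ng of RNA (SMART-Seq v4, a chemistry without strand information) and read as 50-base pairs, per the labels' protocols. The deposited table gives the authors' raw counts per gene. For these the submitters' processing notes list HTSeq 0.5.3, STAR 2.5.0a, cutadapt 1.6 and DESeq 1.22.1. Build and annotation were not given in the sources used here. Of 57445 gene IDs 51488 matched current symbols. The 5 entries without a gene, 39.5% to 47.9% of all counts in the 6 libraries compared, were left out of tests.

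All 18 libraries were fitted with edgeR 4.0.16 (R 4.3.3) with 1 mean per group, after TMM scaling and the edgeR filter, which left 16187 genes. The contrasts were passage 2 minus passage 1 leaders, and that step minus the step from passage 3 to passage 4. Genes were called at a Benjamini-Hochberg adjusted p under 0.05. CPM use TMM-scaled library sizes.

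Named genes were the 10 largest changes and 6 smallest adjusted p in each direction among genes called without overlap between libraries and with a mean of 5 CPM or more in the higher group. For the difference of steps they were the 5 smallest adjusted p in each direction with 5 CPM or more in the highest group, whether or not libraries overlapped. Each list gave at most 4 genes, ranked by adjusted p without such a filter. Others were chosen after their values were seen. The 25 pathway and 6 marker lists, and the libraries compared, were chosen with earlier results of these data known. Folds against 0 counts use a floor of 3 counts over the group, and intervals and floors cover counting error only. DESeq2 1.42.0 and limma 3.58.1 were alternatives. Gene classes, and the length and GC content of each gene's longest transcript, are from GENCODE 29 (97.6% of genes tested). The test was tested on simulated data.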

Additional observations from a re-analysis of the deposited data

Results flagged for a closer look

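The results here were picked out because the first step of the selection (passage 1 to 2) differed from the last (passage 3 to 4) by the test of the difference itself, for which 316 genes had an edgeR adjusted p under 0.05. Values are the log2 fold change of the first step minus that of the last. The genes were taken from those named above, many of which were chosen for their change at the first step. For those, part of the difference was fixed by the choice. The last step itself was at -0.31 for LEFTY2, -0.16 for CHI3L2, 0.09 for TIAM2, 0.24 for CADM2, -0.19 for SAT1 and 0.20 for CCNL2. It was at -9.75 for IGFL1, -8.38 for REG4 and 6.7 for CXCL1. Among genes that rose at the first step, the difference was 12.3 for LEFTY2, 19.4 for IGFL1, 11.4 for SLC14A1, 14.8 for REG4, 9.53 for OLFM4, 11.4 for OBP2B, 7.8 for SOX5 and 8.71 for MGARP. LEFTY2 had 0 counts in passage 1 and IGFL1 and REG4 had 0 in passage 4, so the fitted sizes of these 3 depend on the prior count and are no bounds.

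Smaller differences were 7.12 for STAR, 6.91 for FN1, 4.73 for CHI3L2, 4.73 for GASK1B, 4.7 for PDGFRA, 3.47 for CADM2, 3.44 for MMP24, 2.69 for TIAM2, 1.62 for DDB1 and 1.03 for MCM4. TRIM24, which did not pass at the first step, was at 2.26.

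Among genes that fell at the first step, the difference was -14.8 for CXCL1, -5.77 for CXCL2, -3.27 for MAPK8IP3, -2.62 for RSRP1, -2.5 for HIVEP1, -2.42 for LAMB2, -2.23 for S100A4, -2.22 for CCNL2, -2.13 for SAT1, -1.97 for NFKBIZ, -1.83 for CLDN1, -1.81 for CCDC18-AS1 and -1.48 for ANKRD37. CXCL1 averaged 18.3 CPM in passage 4 leaders, from 1 library above the others. AKAP12 (-5.28) and HSPA6 (-3.06) did not pass at the first step.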

How the results depend on the processing

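Of the 579 genes called between passage 2 and passage 1 leaders, none had the opposite sign under any setting in which it was tested. Genes outside the protein-coding class were not tested in the fit of protein-coding genes alone. The count was 543 with DESeq2 size factors, 626 with limma-voom, 655 without a filter on low counts and 542 without mitochondrially encoded genes. It was 1537 with the DESeq2 Wald test, 2147 when only the 6 compared libraries were fitted, 1473 with length and GC offsets and 310 in protein-coding genes alone, the last 2 chosen after the data were seen. Leaving out 1 library gave 38 to 265. Of the 30 genes named for size or evidence, 14 were called in all 6 of these fits and REG4 and SERPINA5 in none. With limma-voom 22 of the 30 were called, all but IGFL1, REG4, TCN1, KRT23, PAMR1, CXCL1, CLDN16 and DNASE1L3. The count of genes that differed between the first and last step was 316, and 296 with DESeq2 size factors, 311 with limma-voom, 931 with the DESeq2 Wald test, 513 without a filter, 596 with only the compared groups, 890 with length and GC offsets and 67 to 227 without 1 library. The cause of these shifts was not tested.

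Replicate numbers were shared between groups only as numbers. Same-numbered libraries of passages 1 and 2 had deviations from their group means that correlated at -0.0217, -0.0364 and 0.0109, and no library correlated best with its own number. With the replicate number as a block, 353 genes were called between passage 2 and passage 1 leaders, 344 of them shared with the fit without it, and 214 between the first and last step.

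With 3 libraries a group and a biological coefficient of variation of 35.5%, a gene that did not pass was not shown to be unchanged.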

Other observations

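Genes of chromosome 6 rose more often than those of any other chromosome tested. Of 815 tested 38 rose (4.66%) and 6 fell, against 2.06% that rose over all genes, and the next shares were 3.63% on chromosome 14 and 3.25% on chromosome 21. The median on chromosome 6 was 0.13, and 0.19 with length and GC offsets, below the 0.15 of chromosome 20 in the first case. TIAM2, MCM3, NT5E, SRF and SOD2, named above, are among the 38. HMGA1, an architectural chromatin protein, was at 109, 103 and 106 CPM in passage 1 and 252, 286 and 289 CPM in passage 2 (log2 change 1.38 ± 0.24 SE, edgeR adjusted p = 0.0115), and XPO5, the exporter of microRNA precursors, at 61.3, 42 and 61.1 and 123, 109 and 97.4 CPM (log2 change 1.0 ± 0.19 SE, edgeR adjusted p = 0.0134). Leaving out 1 library left 3 to 19 rises, 14 of them without passage 1 replicate 2, and medians of 0.09 to 0.17. XPO5 was lost without passage 1 replicate 2 or passage 2 replicate 1 or 2 (edgeR adjusted p = 0.0596 to 0.0694), and HMGA1 without passage 1 replicate 3 or passage 2 replicate 2 (edgeR adjusted p = 0.0505 to 0.0533). The chromosome and both genes were chosen after their values were seen.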
